A study of Mus musculus with 9 samples.

Results

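Akap9, Bod1l, Tpr, Golgb1, Tmf1, Cntln, Ccdc88a and Nipbl, 8 genes that encode long proteins, were followed across 9 RNA-seq libraries. They were chosen by their read counts scaled to library size (CPM), which were lower in SB28 tumor cells that carried the mKate2 label of astrocyte mitochondria (mKate2+) than in SB28 cells that did not (mKate2-). They are 8 of 49315 gene IDs in the count table and 8 of 11854 genes tested between those SB28 groups, and all 8 passed the filter on low counts in each comparison. That difference chose them, so it is described here with no test. SB28 is a mouse glioblastoma cell line of C57BL6 origin that expresses GFP. The astrocytes were primary cultures from newborn C57BL6 (mito::mKate2) mice, in which the CAG promoter drives a red fluorescent protein targeted to mitochondria. The 3 groups, with 3 libraries each, were mKate2- SB28, mKate2+ SB28 and astrocytes. All were sorted after 2 days in the same 1:1 co-cultures, and none received another treatment. The sample records give 2% FBS, 5% N2 supplement and 20 ng/ml EGF and FGF. The study's methods give other FBS and N2 percentages for the co-culture medium. No SB28 cells grown alone were analysed here, so mKate2- cells had also shared a dish with astrocytes. SB28 is 1 line, and each group has 3 co-cultures behind it.

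Total counts ranged from 27187348 to 39287841 in the SB28 libraries and from 24454561 to 35135662 in the astrocyte libraries. A library in each of 2 groups stood apart. In mKate2+ replicate 2, ribosomal protein genes took 6.95% of counts, against 3.70% to 4.24% in the other 5 SB28 libraries, and genes with over 6000 exonic bases (members left out) took 28.8%, against 33.5% to 34.6%. In astrocyte replicate 3, the same long genes took 38.0%, against 31.9% and 35.1% in the other 2 astrocyte libraries. For the mean of both SB28 groups against astrocytes, calls of the members that change without either library are given both ways.

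A coiled coil is a rod made of intertwined helices that repeat every few residues, with leucines along the seam between them. Proline breaks such helices, so long coiled coils are long stretches without proline. Cells use these rods as scaffolds and tethers. Akap9 anchors kinases at the centrosome and the Golgi, and Cntln links centrioles. Golgb1 (giantin) and Tmf1 are golgins, rods that reach out from Golgi membranes to catch vesicles. Tpr builds the nuclear basket of the nuclear pore. Bod1l protects stalled replication forks and works with the SETD1 methyltransferase complex, Nipbl loads the cohesin ring onto chromatin, and Ccdc88a (girdin) binds actin and G proteins and is studied in cell migration.

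The coding sequences were read for these features. The genes were grouped under the name long coiled-coil genes, so long runs in most of them are partly fixed by that choice. The longest run of codons with no proline codon was 781 in Golgb1, 667 in Akap9, 575 in Ccdc88a, 361 in Tpr, 327 in Tmf1 and 295 in Cntln. The median over 21337 coding genes was 68 codons, and 2.13% of them had a run above 200. Bod1l, with a run of 84 codons, and Nipbl, with 111, did not have such runs. By this measure 6 of 8 members had a long stretch without proline, though coiled coils themselves were not predicted. The name coiled-coil does not hold by it for Bod1l or for Nipbl, whose protein is better known for a solenoid of helical repeats. Charged codons (Asp, Glu, Lys and Arg) made up 28.8% to 34.7% of each member's coding sequence, against a median of 22.55% over coding genes, and Bod1l, Akap9 and Ccdc88a held 32.6%, 32.6% and 32.7%. Leucine codons separated Bod1l, at 4.91%, from Golgb1, at 13.5%, with a median over coding genes of 10.2%.

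To show what such runs look like in the sequence itself, 105 bases from the centre of the longest run without a proline codon are given for 4 members with long runs and for Bod1l and Nipbl, in lower case with the leucine codons in capitals (GENCODE M21 coding sequence, GRCm38, 5′ to 3′ on the coding strand, each within 1 exon).
Golgb1: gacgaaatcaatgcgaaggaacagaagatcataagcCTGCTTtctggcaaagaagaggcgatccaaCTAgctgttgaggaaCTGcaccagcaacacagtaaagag
Ccdc88a: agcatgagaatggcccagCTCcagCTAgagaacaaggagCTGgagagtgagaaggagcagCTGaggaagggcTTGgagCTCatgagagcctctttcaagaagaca
Tpr: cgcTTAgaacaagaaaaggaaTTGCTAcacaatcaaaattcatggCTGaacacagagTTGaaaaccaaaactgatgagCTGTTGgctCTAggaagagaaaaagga
Akap9: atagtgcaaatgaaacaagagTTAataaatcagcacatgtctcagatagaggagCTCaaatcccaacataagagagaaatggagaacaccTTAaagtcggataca
Bod1l: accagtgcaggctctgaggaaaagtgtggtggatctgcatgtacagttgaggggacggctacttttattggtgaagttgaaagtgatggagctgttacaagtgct
Nipbl: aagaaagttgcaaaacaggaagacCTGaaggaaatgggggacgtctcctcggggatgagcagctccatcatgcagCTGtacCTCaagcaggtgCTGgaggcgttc
The stretches lie at chr16:36918264-36918368 on the plus strand, chr11:29463612-29463716 on the plus strand, chr1:150403887-150403991 on the plus strand, chr5:3960514-3960618 on the plus strand, chr5:41818966-41819070 on the minus strand and chr15:8302920-8303024 on the minus strand. They hold 4, 6, 8, 3, 0 and 4 leucine codons, and the same stretches of Tmf1 and Cntln hold 5 each, so this count does not part Nipbl from the members with long runs.

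Levels are given as CPM after TMM scaling over the 9 libraries, which compares 1 gene between libraries. Akap9 (chr5:3928054-4081310, plus strand) stood at 50.7, 43.98 and 45.7 CPM in mKate2- replicates 1 to 3, at 34.8, 22.9 and 33.0 CPM in mKate2+ replicates 1 to 3 and at 42.5, 44.7 and 63.6 CPM in astrocyte replicates 1 to 3. Every mKate2+ library lay below every mKate2- and every astrocyte library, and the ranges of mKate2- cells and astrocytes overlapped. Cntln (chr4:84884309-85131921, plus strand) stood at 15.99, 17.3 and 18.2 CPM in mKate2- cells, then 11.6, 10.3 and 14.1 CPM with the mKate2 label, and 8.94, 9.96 and 17.3 CPM in astrocytes. Its astrocyte libraries spanned both SB28 groups.

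Among the golgins, Golgb1 (chr16:36875140-36933085, plus strand) had 87.1, 74.5 and 80.0 CPM in mKate2- cells, then 59.7, 32.4 and 56.2 CPM with the mKate2 label, and 90.0, 82.6 and 135.7 CPM in astrocytes. The mKate2+ libraries were the lowest 3 of the 9. Tmf1 (chr6:97152997-97179122, minus strand), a golgin of the trans-Golgi, had 53.0, 49.3 and 50.01 CPM in mKate2- cells, then 42.4, 33.6 and 36.3 CPM with the mKate2 label, and 32.8, 38.6 and 44.7 CPM in astrocytes. Here mKate2- cells were the highest group, and mKate2+ cells and astrocytes overlapped.

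Of the nuclear proteins, Tpr (chr1:150392838-150449935, plus strand) stood at 108.5, 111.9 and 121.0 CPM in mKate2- cells, then 81.8, 53.4 and 87.7 CPM with the mKate2 label, and 99.3, 100.5 and 142.2 CPM in astrocytes. Bod1l (chr5:41787538-41844315, minus strand) had 39.8, 36.02 and 38.6 CPM in mKate2- cells, then 26.5, 16.2 and 26.3 CPM with the mKate2 label, and 48.0, 44.9 and 70.4 CPM in astrocytes. Bod1l was the 1 member whose 3 groups did not overlap at all, in the order mKate2+, mKate2-, astrocytes. The choice of the genes fixes mKate2+ below mKate2-, and the share of all genes with the full order was not counted. Nipbl (chr15:8290617-8444463, minus strand) had 99.3, 99.8 and 94.96 CPM in mKate2- cells, then 81.1, 59.6 and 79.7 CPM with the mKate2 label, and 55.6, 66.3 and 87.0 CPM in astrocytes, so mKate2- cells were again the highest group. Ccdc88a (chr11:29373658-29510808, plus strand), which acts at the cell cortex, had 55.2, 57.3 and 49.5 CPM in mKate2- cells, then 45.1, 33.1 and 41.7 CPM with the mKate2 label, and 45.9, 55.4 and 64.9 CPM in astrocytes. Its astrocyte libraries lay above all 3 mKate2+ libraries and overlapped mKate2- cells.

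**Figure D1:**
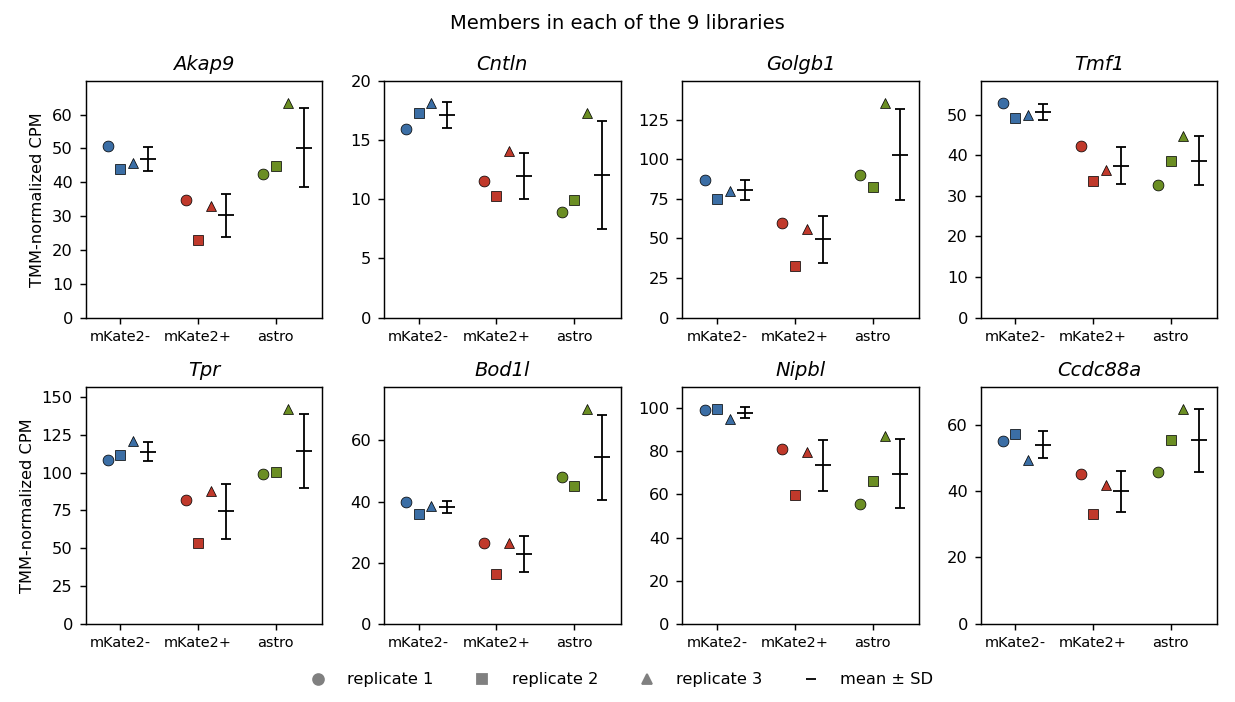
TMM-normalized CPM (y axis, from 0) of each member in mKate2- SB28, mKate2+ SB28 and astrocytes, with 1 point per library, a shape per replicate number and the mean ± SD (n = 3) in black. In each panel the 3 mKate2+ points lie below the 3 mKate2- points, as the choice of the members fixes. In each, mKate2+ replicate 2 is the lowest of the 6 SB28 points, which held for 33.2% of the 11854 genes tested. Low mKate2+ values chose the members, so nothing is read from this. In 5 of 8 panels astrocyte replicate 3 is the highest of all 9, a pattern not counted over all genes.

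Levels of different genes were compared per length, as TPM, a count divided by gene length and scaled to a fixed total, in mKate2- cells over the union of a gene's exons. Tpr stood at 34.9 ± 6.38 TPM (SD, n = 3), Nipbl at 33.2 ± 3.54, Tmf1 at 28.3 ± 2.88, Golgb1 at 21.6 ± 2.29, Ccdc88a at 15.8 ± 1.48, Bod1l at 10.2 ± 1.26, Cntln at 7.78 ± 1.48 and Akap9 at 6.98 ± 0.626 TPM. The libraries of Tpr, Nipbl and Tmf1 overlapped one another, as did those of Cntln and Akap9, and the other neighbours in this order did not. The union of exons is 21350 bases for Akap9, whose longest annotated transcript has 13123, so its level per length is the most dependent on the annotation.

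As a description of what chose them, the log2 fold changes of mKate2+ over mKate2- cells ± SE (3 libraries a group) were -0.74 ± 0.18 for Bod1l, -0.71 ± 0.21 for Golgb1, -0.63 ± 0.16 for Akap9, -0.62 ± 0.17 for Tpr, -0.52 ± 0.14 for Cntln, -0.44 ± 0.11 for Tmf1, -0.44 ± 0.13 for Ccdc88a and -0.42 ± 0.12 for Nipbl. Their median was -0.57, against 0.003 over the 11854 genes tested. All 8 members had non-overlapping groups, a pattern that 4.56% of the genes tested showed in this direction, and nothing is read from that count because the same libraries chose the genes. With edgeR's quasi-likelihood test no gene of the 11854 had an adjusted p below 0.05 in this comparison (0% called), and 241 genes (2.03%) had an unadjusted p below 0.05. By a fold above 1.5, an unadjusted p below 0.05 and a mean normalized count above 50, 20 genes (0.169%) were lower and 23 (0.194%) higher with edgeR. With DESeq2 21 were lower and 62 higher. Leaving out 1 library at a time gave 16 to 70 genes lower and 6 to 310 higher, and with a replicate block more were lower than higher. The members' 8 values were smaller in size without mKate2+ replicate 2, when their median was -0.44.

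The members moved together. The deviation of a library was taken as log2 CPM minus the mean of the mKate2- libraries. Its median over the 8 members was -0.43 in mKate2+ replicate 1, -0.88 in replicate 2 and -0.43 in replicate 3, and between -0.03 and 0.05 in the mKate2- libraries. In replicates 1 and 3, which had no excess of ribosomal protein counts, the members ranged from -0.57 to -0.26 and from -0.54 to -0.28. Golgb1, at -1.31, and Bod1l, at -1.23, were the lowest in replicate 2, and Tmf1, at -0.59, was the least low. Over the 6 SB28 libraries, Pearson's r of log2 CPM between members ran from 0.81 to 0.99 with a median of 0.95 over 28 pairs. The pairs share libraries and all carry the group difference that chose them, so these values are descriptive.

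The 5 genes most like the members were those with the highest Pearson's r, over the 6 SB28 libraries, with the mean of the members' centred log2 CPM, among 8997 genes of at least 10 CPM. They were Zmym5 (r = 0.999), Zscan26 (0.992), Baz2b (0.989), Atrx (0.987) and Rpgrip1l (0.986). Zmym5 and Zscan26 encode zinc finger proteins, Baz2b and Atrx encode chromatin proteins, and Rpgrip1l encodes a protein of the ciliary transition zone. Atrx stood at 117.5, 115.2 and 117.7 CPM in the mKate2- libraries, against 95.9, 61.8 and 94.8 CPM in the mKate2+ libraries. Zscan26 had 15.1, 15.5 and 15.1 CPM against 12.6, 9.47 and 12.7 CPM. Both were selected for likeness over these same 6 libraries, which fixes the order of their groups and the low place of mKate2+ replicate 2.

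Against astrocytes, the members were compared by the mean of both SB28 groups. This mean includes the mKate2+ libraries, whose low values chose the genes and whose spread was larger (for Golgb1 an SD of 14.8 CPM, against 6.30 CPM in mKate2- cells), so the choice can lower it and the calls are not independent of the choice. Of the 8, 4 were lower in SB28 at an adjusted p below 0.05 and none was higher, where 36.8% of the 13450 genes tested were called lower and 32.8% higher. Bod1l had the largest difference, -0.95 ± 0.18 on the log2 scale (SE, 6 SB28 and 3 astrocyte libraries, edgeR's quasi-likelihood test with Benjamini-Hochberg adjustment, adjusted p = 0.00095), with all 6 SB28 libraries below all 3 astrocyte libraries. Golgb1 fell by 0.78 ± 0.21 (edgeR, adjusted p = 0.0067) and Akap9 by 0.49 ± 0.16 (edgeR, adjusted p = 0.021). Ccdc88a was called at -0.33 ± 0.13 (edgeR, adjusted p = 0.047). Tpr, at -0.38 ± 0.17 (edgeR, adjusted p = 0.066), was not called, and neither were Tmf1 at 0.10 ± 0.12, Cntln at 0.17 ± 0.21 and Nipbl at 0.21 ± 0.15 (edgeR, adjusted p = 0.46, 0.48 and 0.22). With 8 genes, a count of 4 is not set apart from the share of all genes called lower. With mKate2- cells alone against astrocytes, where the choice can raise the values, 1 member was called lower, Bod1l (edgeR, adjusted p = 0.021), and 1 higher, Nipbl (edgeR, adjusted p = 0.048), where 33.8% of 13356 genes were called lower and 29.3% higher. Golgb1, Akap9 and Ccdc88a were not called there (edgeR, adjusted p = 0.083, 0.38 and 0.52). In the mean of both SB28 groups none of the 8 differed from astrocytes by more than a log2 fold change of 1. With an adjusted p below 0.05 as well (edgeR), 23% of genes did so in the lower direction and 12.2% in the higher.

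The members' calls depended on the processing and on single libraries. With replicate number as a block (edgeR), Tpr was called lower and Ccdc88a was not called. Tpr was called lower with DESeq2 (adjusted p = 0.039), and with edgeR under upper-quartile scaling (0.029), at least 10 counts in every library (0.032) or a recentred GC trend (0.012), and Ccdc88a was not called with no filter on low counts (0.137). Without mKate2+ replicate 2, 3 were called lower, Ccdc88a standing at -0.25 (edgeR, adjusted p = 0.084). Ccdc88a also lost its call without any 1 of the 3 mKate2- libraries, mKate2+ replicate 3 or astrocyte replicates 2 and 3 (edgeR, adjusted p = 0.062 to 0.20). Tpr was called lower without mKate2+ replicate 3 (-0.45, adjusted p = 0.041) or without astrocyte replicate 1 (-0.47, adjusted p = 0.048). Without astrocyte replicate 3, 2 members were called lower (Bod1l and Golgb1), Akap9 stood at -0.30 (edgeR, adjusted p = 0.11) and Ccdc88a at -0.21 (adjusted p = 0.20), and 2 were called higher, Cntln at 0.51 (adjusted p = 0.017) and Nipbl at 0.39 (adjusted p = 0.031). With a length trend taken out of each library and the TMM scale kept, an alternative chosen after the data were seen, Bod1l (-0.75) and Golgb1 (-0.57) were called lower and Nipbl (0.33) higher.

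Each SB28 group was also set against the same 3 astrocyte libraries. These comparisons share controls and use the libraries that chose the genes, so their sizes are given side by side as a description. In mKate2- cells the log2 fold changes over astrocytes were -0.59 for Bod1l, -0.42 for Golgb1, -0.18 for Akap9, -0.11 for Ccdc88a, -0.08 for Tpr, 0.32 for Tmf1, 0.42 for Nipbl and 0.43 for Cntln. In mKate2+ cells they were -1.31, -1.12, -0.80, -0.54, -0.68, -0.12, 0.01 and -0.08 in the same order of genes. The mKate2+ value was the lower for each gene, which the choice of the genes fixes. Without astrocyte replicate 3 the mKate2- values of Akap9, Ccdc88a and Tpr turned to 0.02, 0.02 and 0.11, that of Golgb1 was -0.17 and that of Bod1l -0.36, and those of Tmf1, Nipbl and Cntln were 0.43, 0.61 and 0.78. In mKate2+ cells Cntln then turned to 0.25, Nipbl was at 0.18 and Tmf1 at -0.02.

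**Figure D2:**
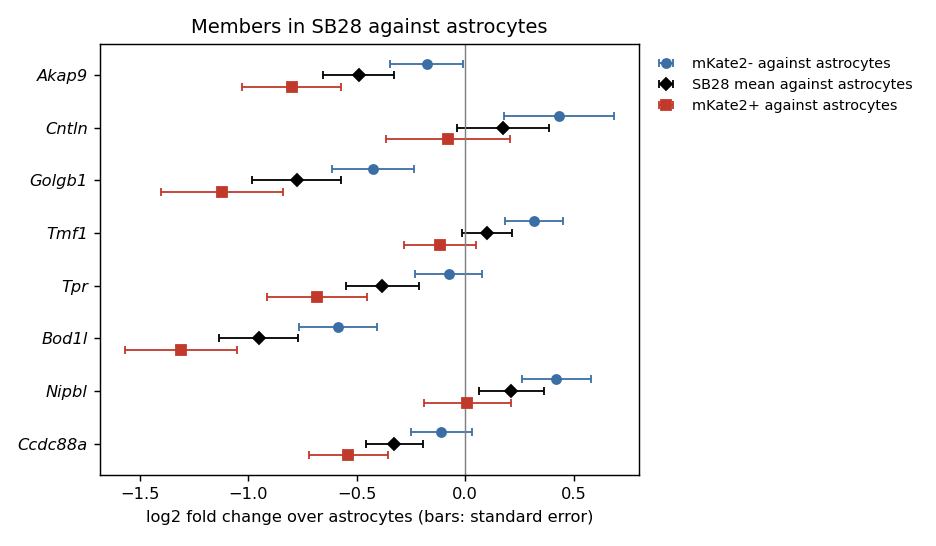
Log2 fold change over astrocytes (x axis) of the 8 members in mKate2- SB28 (circles), the mean of both SB28 groups (diamonds) and mKate2+ SB28 (squares), with bars of 1 standard error (3 libraries a group). Bod1l and Golgb1 lie left of 0 in all 3, and Tmf1, Cntln and Nipbl lie right of 0 in mKate2- cells, at 0.32 to 0.43, and between -0.12 and 0.01 in mKate2+ cells.

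The labelled cell types were checked with markers. Of 15 astrocyte markers, Slc1a3, a glutamate transporter, was at 166 to 221 CPM in astrocytes and at 0.62 to 2.37 CPM in SB28, and Apoe was at 244 to 255 CPM against 2.17 to 3.20 CPM. Gjb6 was at 0 in all 9 libraries, S100b, at 0.32 to 2.03 CPM, and Gfap, at 3.22 to 18.2 CPM, were low in the astrocytes, and 8 of the 15 were at least 10 times higher in astrocytes. Gja1 went the other way, at 243 to 310 CPM in SB28 and 163 to 202 CPM in astrocytes, and Clu was at 95.1 to 143 CPM in SB28 and 60.6 to 126 CPM in astrocytes. Astrocyte replicate 3 stood apart in these markers too. They summed to 1215, 1144 and 1809 CPM in astrocyte replicates 1 to 3. Aldoc stood at 53.8, 31.8 and 339 CPM there, while Fabp7 was lowest in replicate 3, at 15.8, 16.9 and 11.7 CPM. Oligodendrocyte lineage markers summed to 417 to 819 CPM in astrocytes, mostly Olig1 and Olig2, with Sox10 and Mog near 0, and to 17.5 to 26.9 CPM in SB28. The astrocyte markers summed to between 522 and 584 CPM in the mKate2- libraries, against 534 to 617 CPM in the mKate2+ libraries, led by Gja1, and Slc1a3 was at 0.84, 0.62 and 1.14 CPM in the mKate2+ libraries. Neuronal markers summed to 39.5 to 49.3 CPM in SB28 and to 51.7 to 92.9 CPM in astrocytes (Rbfox3 at 0 throughout). Tubb3 and Map2 led them in SB28 and Map2 and Stmn2 in astrocytes, where Stmn2 stood at 11.1, 40.7 and 36.1 CPM, against 0.483 to 1.48 CPM in SB28. Microglial markers summed to 27.2 to 39.4 CPM in astrocytes and 48.1 to 67.8 CPM in SB28, nearly all Tmem119, with Cx3cr1 at 0 in all SB28 libraries. Endothelial markers summed to at most 1.43 CPM in SB28 and 6.51 CPM in astrocytes, led by Cdh5. Fibroblast markers summed to 595 to 826 CPM in SB28 and to 985 to 1401 CPM in astrocytes, led by Col1a2, with Dcn and Lum near 0 in SB28. The part of other cell types in the astrocyte levels of the members was not tested, and in bulk samples fewer cells of a type and less RNA per cell cannot be told apart.

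Other genes of the same structures were taken from lists written with earlier results of these data known, and none of their genes reached an adjusted p below 0.05 between the SB28 groups (edgeR). They are described by counts and medians beside the 49.1% of all genes that had a log2 fold change below 0. Of 30 centrosomal coiled-coil genes, 29 had a value below 0 (median -0.25), and of 28 tested genes for spindle and other coiled-coil proteins all 28 did (median -0.32). Cntrl, a centriole protein, at -0.70, and Cep290, of the ciliary base, at -0.61, were the farthest from 0 among the first, and Cenpe, a kinetochore motor, at -0.64, and Cenpf, at -0.53, among the second. Of 16 golgins 12 were below 0 (median -0.18), with Golga4 at -0.52 and Gcc2 at -0.47. Nucleoporins were even over all 6 libraries, with 13 of 27 below 0 and a median of 0.02, Ranbp2 at -0.24 and Ahctf1 at -0.17 being the farthest from 0. Of 25 cohesin and condensin genes 21 were below 0 (median -0.13), led by Smc1a at -0.26 and Smc4 at -0.26. Of 10 SETD1 complex genes 4 were below 0 (median 0.01), with Dpy30 at 0.38 and Setd1a at -0.18. Of 6 genes for girdin paralogs and proteins that girdin binds, 2 were below 0 (median 0.07), with Ccdc88c at -0.24 and Gnai2 at 0.21. Of 39 long mRNAs whose proteins are mostly not coiled coils, such as the chromatin regulators Ankrd11 at -0.40 and Bptf at -0.37, 35 were below 0 (median -0.10). The median exonic length of this list was 16580 bases, and that of the centrosomal list 8932. None of 35 short ribosomal and respiratory chain mRNAs was below 0 (median 0.68), with Rpl38 at 1.18 and Rps21 at 1.03, both of which were raised in mKate2+ replicate 2 alone (334.4 and 632 CPM, against at most 91.7 and 198.6 CPM in the other 5).

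These list values rested in large part on 1 library. Without mKate2+ replicate 2 the medians were -0.12 for the centrosomal list (24 of 30 below 0), -0.12 for the spindle and other list (24 of 28), -0.08 for the golgins (11 of 16), -0.003 for cohesin and condensin (13 of 25), -0.04 for the long mRNAs (28 of 39) and 0.06 for the short mRNAs (3 of 35). They were 0.06 for the nucleoporins (4 of 27), 0.04 for the SETD1 complex (2 of 10) and 0.05 for the girdin paralogs and binding proteins (2 of 6). The nucleoporins changed side with the library left out, with 19 of 27 below 0 (median -0.04) without mKate2+ replicate 3, 17 (-0.02) without replicate 1 and 17 (-0.04) without mKate2- replicate 2. The SETD1 complex genes did so too, with 6 of 10 below 0 without mKate2+ replicate 1 or 3 or without mKate2- replicate 2. The members' median without it was -0.44. The members cannot be set against these lists as a result, since their low mKate2+ values chose them.

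**Figure D3:**
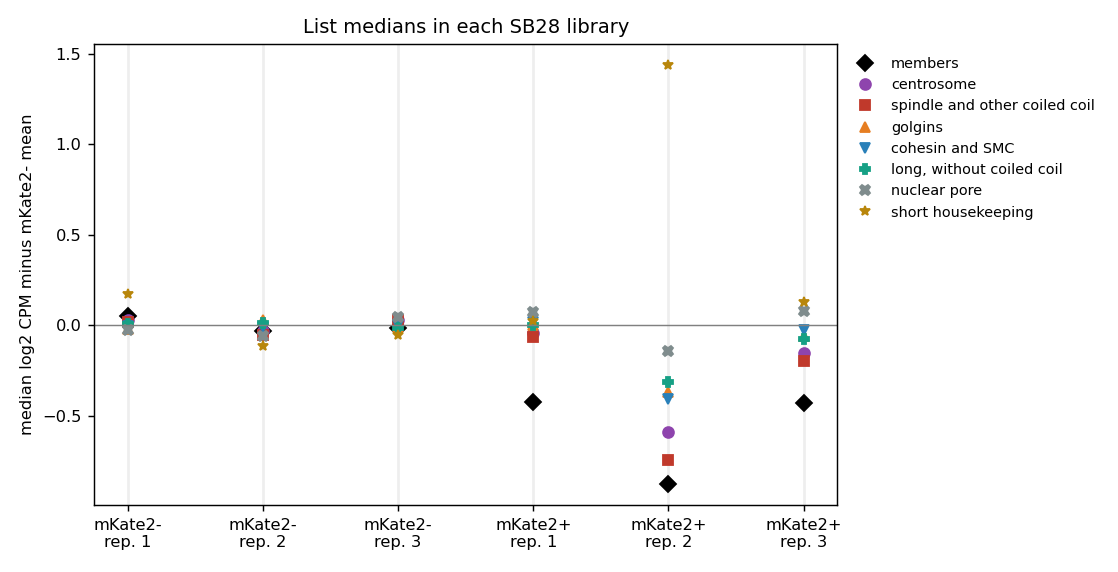
Median over each list of log2 CPM minus the mean of the mKate2- libraries (y axis) in each of the 6 SB28 libraries. The other lists lie between -0.20 and 0.13 in mKate2+ replicates 1 and 3 and between -0.74 and 1.44 in replicate 2, and the members (diamonds) are lowest in the mKate2+ libraries because they were chosen for low values there.

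The direct partners of the members were named whatever their values. Cdk5rap2, which helps nucleate microtubules at the centrosome with Akap9, and its paralog Pde4dip had log2 fold changes of -0.24 ± 0.16 and -0.35 ± 0.11 (SE) between the SB28 groups. Golga2, the cis-Golgi partner of golgins, had -0.20 ± 0.12, and Nup153, which holds Tpr at the pore, had -0.07 ± 0.15. Mau2, which forms the cohesin loader with Nipbl, was at 68.1, 66.8 and 67.4 CPM in the mKate2- libraries, against 62.5, 60.6 and 64.2 CPM in the mKate2+ libraries (-0.11 ± 0.07). The groups of Mau2, Cdk5rap2 and Pde4dip did not overlap, as was so in this direction for 4.56% of the genes tested. Those of the other partners named here overlapped. The cohesin subunits Smc1a, Smc3 and Rad21 had -0.26 ± 0.16, -0.17 ± 0.15 and -0.13 ± 0.11, and in mKate2+ replicate 1 all 3 were within the range of the mKate2- libraries. Setd1a and Setd1b, the methyltransferases that work with Bod1l, had -0.18 ± 0.16 and 0.02 ± 0.11, and Ccdc88c, the paralog of Ccdc88a, had -0.24 ± 0.24. None of these passed the test (edgeR, smallest adjusted p = 0.923).

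Against astrocytes, by the mean of both SB28 groups, the counts of partners called stand beside 32.8% of all genes called higher and 36.8% called lower. Of 28 nucleoporins tested 26 were called higher in SB28 and 1 lower (edgeR, adjusted p below 0.05). Nup205 was at 1.65 ± 0.10, Nup107 at 1.60 ± 0.10 and Nup153 at 0.64 ± 0.16. Nup210, a membrane nucleoporin, was the 1 called lower, at 6.29 to 7.15 CPM in astrocytes and 0.359 to 0.666 CPM in SB28 (-3.91 ± 0.23). Of 25 cohesin and condensin genes 20 were called higher and 2 lower. Cdca5 was at 1.57 ± 0.12, Ncaph at 1.43 ± 0.11 and Ncapd2 at 1.24 ± 0.10. Rad21 was at 0.96 ± 0.15, Smc3 at 0.77 ± 0.13 and Smc1a at 0.37 ± 0.15. Mau2, at -0.08 ± 0.08, was not called. Of 10 SETD1 complex genes 6 were called higher and 1 lower. Wdr5 was at 1.04 ± 0.11, Rbbp5 at 0.81 ± 0.09 and Bod1, the paralog of Bod1l, at 0.98 ± 0.10. Setd1b was the lower one, at -0.41 ± 0.11 (edgeR, adjusted p = 0.0070). Of 8 girdin paralogs and binding proteins 3 were called higher, among them Akt1 (0.75 ± 0.10) and Gnai3 (0.80 ± 0.09), and 4 lower. Among the lower were Gnai2 (-0.59 ± 0.12) and Gnai1, which stood at 8.34 to 20.4 CPM in astrocytes and at most 0.366 CPM in SB28. Tpr, Nipbl and Bod1l are not set against these partners, since the mKate2+ libraries that chose them enter the mean of both SB28 groups. Their values were -0.38, 0.21 and -0.95 in that mean. In mKate2- cells alone, where the choice can raise them, they were -0.08, 0.42 and -0.59. No difference between a member and a partner was tested.

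Golgins and centrosomal genes were divided, with shares mostly near the 36.8% of all genes called lower and 32.8% called higher. Of 16 golgins 7 were called lower in SB28 and 4 higher, with Bicd1 at -1.20 ± 0.15, Golga4 at -1.03 ± 0.15 and Cux1 at -0.53 ± 0.09 (edgeR, adjusted p = 5.5e-05, 0.00019 and 0.00033). Golgb1 was at -0.78 in this mean, which its choice can lower, and at -0.42 in mKate2- cells alone, so its place among them is not read. Of 30 centrosomal genes 11 were called higher and 6 lower, with Cep112 at 1.06 ± 0.16 (SE), Ofd1 at 1.03 ± 0.14, Cep57 at 0.84 ± 0.13 and Pde4dip at 0.53 ± 0.17 among the higher, and Cep290 at -0.82 ± 0.25 among the lower. Of 28 spindle and other coiled-coil genes 9 were called higher, such as Ndc80 (1.46 ± 0.14), and 8 lower, such as Clip2 (-1.32 ± 0.11) and Ccdc141 (-2.96 ± 0.25). Of 40 long mRNAs without coiled coils 10 were called higher and 13 lower, led by Tenm3 (-1.85 ± 0.10), Fat1 (-1.70 ± 0.15) and Notch1 (-3.55 ± 0.22). Of the 35 short mRNAs 10 were called higher, such as Rpl10 (0.82 ± 0.16), Rpl8 (0.98 ± 0.21) and Rplp0 (0.76 ± 0.17), and 0 lower. Their median was 0.55 in this mean, which includes mKate2+ replicate 2, where these mRNAs were raised. In mKate2- cells alone their median was 0.26, with 8 called higher and 2 lower (edgeR, adjusted p below 0.05). There 29.3% of all genes were called higher and 33.8% lower.

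Length set the members apart from most genes, as their grouping as long genes implies. Their exonic lengths ran from 5732 bases (Tmf1) through 7102 (Cntln), 9423 (Nipbl), 10496 (Tpr), 10891 (Ccdc88a), 11862 (Golgb1) and 11995 (Bod1l) to 21350 (Akap9), and 5 of the 8 belonged to the longest of 10 groups of equal size, which began at 10030 bases. Across 11840 genes, Spearman's rho between exonic length and the log2 fold change of mKate2+ over mKate2- cells was -0.42. It was -0.51 with coding length, -0.32 with the genomic span and 0.23 with GC content, which are descriptions across genes that share 6 libraries. The median log2 fold change went from 0.19 in the shortest of these groups to -0.10 in the longest, where 81% of genes were below 0. Within the members the least negative values, for Nipbl, Ccdc88a and Tmf1, came at 9423, 10891 and 5732 bases, and the 4 most negative all came above 10000 bases.

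The relation to length rested mainly on mKate2+ replicate 2. The slope of log2 CPM on each doubling of exonic length, after the mean over the 6 libraries was taken out, was -0.153 in that library and between 0.003 and 0.053 in the other 5. Without it rho was -0.12, the weakest of the 6 values obtained by leaving out 1 library. The share of counts in genes over 6000 bases, members left out, was 34.2% ± 0.573 (SD, n = 3) in mKate2- cells and 32.2% ± 2.97 in mKate2+ cells (exact two-sided permutation test, p = 0.2, where 0.1 is the smallest p that 3 against 3 allows). The difference of -2.01 percentage points became -0.30 without replicate 2. For genes over 10000 bases, members left out, the shares were 11.3%, 11.5% and 11.4% in mKate2- cells and 11.2%, 9.17% and 10.9% in mKate2+ cells. These groups did not overlap (exact two-sided permutation test, p = 0.1, the smallest possible), with a difference of -0.96 percentage points that became -0.33 without replicate 2. With the length trend taken out and recentred, the members' log2 fold changes ranged from -0.64 for Bod1l to -0.35 for Nipbl and Ccdc88a, and without replicate 2 from -0.54 to -0.30. Genes chosen for low mKate2+ values keep values below 0 under such changes, so these ranges say nothing of the part of length or of that library, which was not tested.

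**Figure D4:**
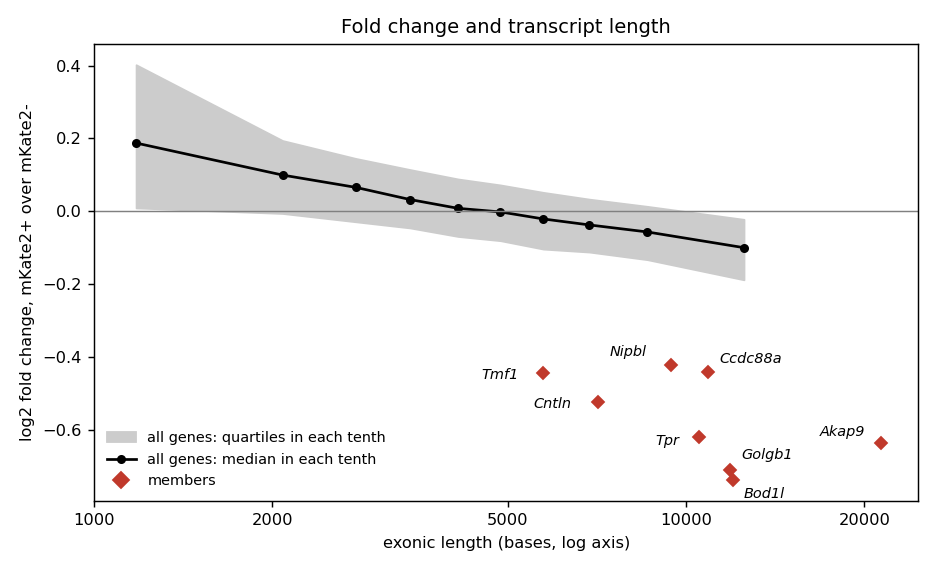
Log2 fold change of mKate2+ over mKate2- SB28 (y axis) against exonic length in bases (x axis, log scale), with the median (line) and quartiles (band) of all genes in 10 groups of equal size and the 8 members (diamonds). The medians go from 0.19 to -0.10, and the members lie between -0.74 and -0.42, below the band, as their choice fixes.

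Within a class of length, the median was lower for genes with long runs free of proline codons than for genes without them. This was looked at after the data had been seen, with the members left out. Length was not held equal within a class. In each class genes with runs above 200 codons had a larger median length than those with runs under 100, at 13034 against 12264 bases in the longest class. Among genes over 10000 bases, the median log2 fold change of mKate2+ over mKate2- cells was -0.22 for the 71 genes with a run above 200 codons (94.4% below 0), -0.11 for the 415 with a run of 100 to 200 and -0.08 for the 673 with a run under 100. Among genes over 6000 and up to 10000 bases it was -0.16, -0.07 and -0.03 for 99, 652 and 1814 genes, and among genes over 3000 and up to 6000 bases -0.13, -0.02 and 0.02 for 78, 800 and 3572 genes. Without mKate2+ replicate 2 the medians over 10000 bases were -0.10, -0.04 and -0.03, in the same order and closer together. In replicate 1 the 71 genes had a median deviation of -0.03, in replicate 2 of -0.54 and in replicate 3 of -0.13. The 673 genes with short runs were at -0.02 in replicate 1. Among genes over 3000 and up to 6000 bases, replicate 1 had the reverse order, at 0.022, 0.016 and 0.013 from long to short runs. Without replicate 2 the long-run medians were -0.06 over 6000 and up to 10000 bases and -0.04 over 3000 and up to 6000. Genes are not replicates, and no test was made of this difference. The members with short runs, Bod1l and Nipbl, had fold changes at both ends of the members' range.

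**Figure D5:**
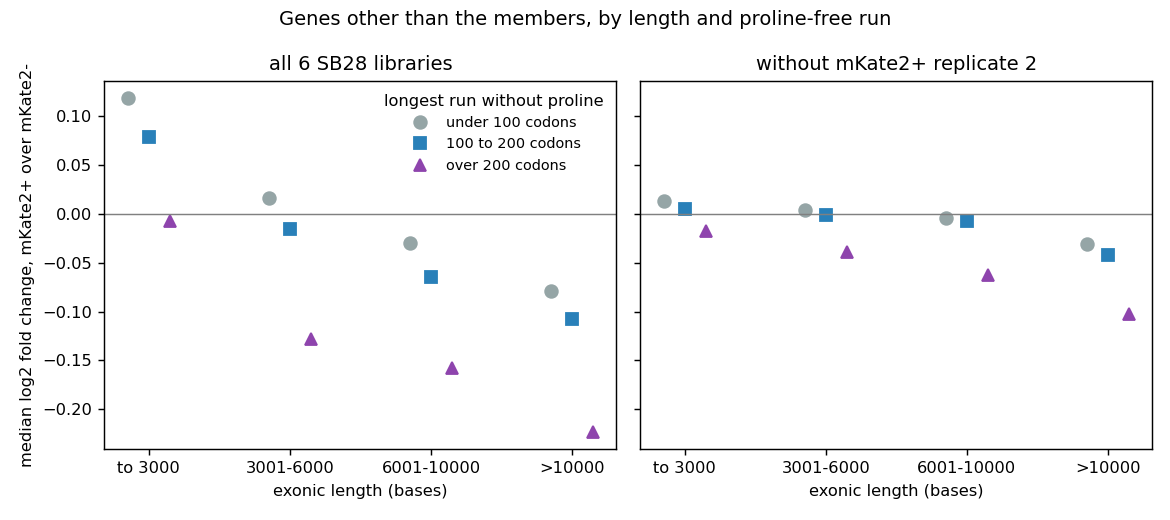
Median log2 fold change of mKate2+ over mKate2- SB28 (y axis) of genes other than the members, by class of exonic length (x axis) and by the longest run without a proline codon (symbols), over all 6 SB28 libraries (left) and without mKate2+ replicate 2 (right). Triangles, for runs over 200 codons, are lowest in each length class, at -0.22 over 10000 bases on the left and -0.10 on the right.

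Some reads of the members could belong to a neighbour. Akap9 shares 166 exonic bases with Cyp51, a sterol synthesis gene on the other strand that stood at 439.6 ± 68.6 CPM in mKate2- SB28, against 422 ± 54.7 CPM in mKate2+ SB28 (SD, n = 3). Tpr shares 176 exonic bases with Odr4 (22.3 ± 0.942 and 20.5 ± 1.01 CPM) and 204 with Prg4, which was at most at 0.313 CPM in any of the 9 libraries, both on the other strand. Golgb1 shares 114 and 499 exonic bases with Gm49600 and Gm49599 on its own strand. The strand setting of the counting is not given in the sources used here, so reads of such pairs cannot be told apart. The other 5 members share no exonic base with another gene in this annotation.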

How the data were processed

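RNA was sequenced from 3 libraries each of mKate2- SB28, mKate2+ SB28 and astrocytes. The authors deposited raw read counts per gene, and the submitters' processing notes name Trimmomatic 0.36, STAR 2.5.2b and featureCounts of Subread 1.5.2 on GRCm38. The strand setting and annotation release are not given in the sources used here. Library names set the groups, because the labels and the study's methods assign the CellTrace Violet dye in the gate to different cells. The mKate2 transgene was not analysed here.

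Counts were fitted with edgeR 4.0.16 (TMM, quasi-likelihood test, Benjamini-Hochberg adjustment) in R 4.3.3, leaving out genes that did not exceed 1 CPM in 2 or more of the compared libraries. DESeq2 1.42.0 was an alternative. Both were tested on simulated data. The contrast of both SB28 groups with astrocytes gives each group equal weight. Lengths, positions and coding sequences came from GENCODE M21, which named 49056 of 49315 gene IDs. The members and lists were chosen with earlier results of these data known. Beside the members, the text names for each list the 3 genes of smallest p against astrocytes and the 2 of largest change between SB28 groups, direct partners, overlapping genes, the 5 most similar genes and cell type markers. Other genes named were chosen after their values were seen. Alternatives were DESeq2, upper-quartile scaling, filters, a replicate block, length and GC trends, and leaving out each library.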

Additional observations from a re-analysis of the deposited data

How the results depend on the processing

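Removing a length or GC trend from each library as first planned raised all genes against astrocytes, the median of all genes in the SB28 mean going from -0.02 to 0.45 under either trend, so the TMM scale was kept (recentred) in versions added after the data were seen. Upper-quartile scaling moved this median to -0.10. For the SB28 mean against astrocytes, with the length trend removed, with the GC trend removed and with the length trend removed and a replicate block, the genes past adjusted p and a log2 fold change of 1 were 3579, 3562 and 3607 higher (60.3% of calls in the last, against 34.6% as reported). The members' median log2 fold change was 0.31, -0.10 and 0.31, members called higher were 5, 3 and 6, and members called lower 0, 1 and 1. Akap9 (0.30), Ccdc88a (0.32) and, with the block, Akap9 (0.30), Ccdc88a (0.32) and Tpr (0.25) then turned positive. Recentred, the length trend left 2 members lower and 1 higher, and the GC trend gave a median of -0.58. With no filter 4906 genes were lower and with at least 10 counts in every library 2011. For mKate2- cells against astrocytes the same 3 settings gave 3443, 3414 and 3508 genes higher and a members' median of 0.53, 0.21 and 0.54, or 0.054 with the length trend recentred. For mKate2+ cells they gave 3698, 3666 and 3731 genes higher and a median of 0.11, -0.33 and 0.10, or -0.38 recentred. The cause of these moves beyond the shift of all genes was not tested.

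Between the SB28 groups, genes past the study's criteria numbered 62 higher with DESeq2 (74.7% of calls, against 53.5%), 224 higher and 35 lower with no filter, 13 higher and 33 lower with the replicate block, 12 higher with block and length trend, 13 higher with the length trend recentred and 53 higher in a fit to all 9 libraries. Spearman's rho of fold change and length was -0.095 with no filter and, once a length trend was removed, -0.0170, -0.0117 with the block and -0.0173 recentred, as that removal is built to do. Leaving out 1 library at a time gave 6 to 310 genes higher and 16 to 70 lower by these criteria, a rho of -0.46 to -0.12, a long-gene share difference of -3.04 to -0.30 percentage points, and a members' median of -0.69 to -0.44. Against astrocytes it gave a members' median of -0.46 to -0.21 for the SB28 mean, -0.21 to 0.068 (without astrocyte replicate 3) for mKate2- and -0.72 to -0.45 for mKate2+ cells, and 2 to 5 members called lower and 0 to 2 higher. Of the single calls, Tpr passed with DESeq2 (adjusted p = 0.039), upper-quartile scaling (0.029), at least 10 counts (0.032), the GC trend recentred (0.012) and the replicate block (0.029). Ccdc88a was lost with no filter (0.137) and with the block (0.0706).

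The groups were sorted from the same co-cultures, but which replicate number marks which co-culture is not given in the sources used here, so the numbers were not taken to pair the samples. Deviations of same-numbered mKate2- and mKate2+ libraries correlated at -0.004, 0.137 and 0.170. Of the 6 libraries 4 correlated best with their own number, a hint from the data and not from the design. The block changed the calls of Tpr and Ccdc88a and the counts above, and no other call. Depth was 24454561 counts or more in each library.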
